A study of Mus musculus with 157 samples.

Results

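mRNA carried by single ribosomes was compared between splenic B cells given etoposide after the ATM inhibitor KU55933 (LPS+ET+KU) and B cells kept in lipopolysaccharide alone (LPS). The comparison used 32 of the 157 sequencing libraries of the study, those of gradient fractions 4 to 7. They came from 4 LPS gradients and 4 LPS+ET+KU gradients, picked by treatment, fraction and the LUL tag in the column names. The tag is called pool below, and the labels do not say what it stands for. All mice were C57BL/6Babr with no engineered allele named, and all cultures received LPS at 10 µg/ml, for 48 h per the design text (47 h ahead of the inhibitor per the protocol). LPS+ET+KU cells then had KU55933 at 10 µM for 1 h and etoposide at 20 µM for 4 h, whereas the third treatment of the study, LPS+ET, had the same etoposide with no inhibitor and serves here as a reference. Every culture was exposed to cycloheximide at 100 µg/ml for 3 min, which freezes ribosomes on mRNA, before the cytoplasm was layered on sucrose. Mice were 8 to 12 weeks old per the study's methods, which call the 4 replicates biological, and the number of animals behind a gradient was not given in the sources used here. In the main fit, a p-value weighs a difference against the spread left between all 12 gradients once treatment and pool are accounted for. That spread is in part shared across genes. Exact tests of shares used only the 8 gradients compared. No culture with KU55933 and no etoposide was among the samples, so what the inhibitor and the etoposide each contributed cannot be told apart against LPS.

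A monosome is 1 ribosome on an mRNA, and mRNAs that are initiated rarely, are short or are leaving translation collect there, while well translated mRNAs of ordinary length sit in polysomes. Etoposide traps topoisomerase II on cut DNA and so leaves double-strand breaks, and ATM is the kinase that first responds to such breaks and activates p53. p53 in turn switches on Cdkn1a and other arrest and death genes, and p21, the Cdkn1a protein, shuts off the genes of G2 and mitosis through the DREAM complex of repressors. Related kinases can also act on p53 after a break.

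Libraries of the 16 LPS fractions held 14724 to 1219242 counts (median 547196.5), and those of the 16 LPS+ET+KU fractions 321208 to 2158545 (median 1050153). Summed over fractions 4 to 7, the LPS+ET+KU gradient was deeper in 4 of 4 pools, so depth and treatment cannot be told apart. Fraction 4 was shallow in 3 LPS gradients (14724, 17629 and 42937 counts), and its log2 CPM (counts divided by the library total and scaled to a common size) correlated with that of fraction 5 at r of 0.52 to 0.61 there, against 0.84 to 0.914 in LPS+ET+KU. The values compared are of genes within 1 gradient, not of replicates. The differences below were therefore also computed from fractions 5 to 7 alone, whose smallest library had 325443 counts. B cell mRNAs were present in all 8 gradients, Cd79b at 428 to 759 CPM and Cd74 at 2550 to 4450, while Pax5 was at 0 to 1.91. Of the T cell markers, Cd3e, Cd3g and Cd8a stayed at 0 to 0.28 CPM and Zap70 at 0 to 2.13, Cd3d was at 0 to 8.74 CPM in LPS and 0.557 to 1.46 in LPS+ET+KU, and Lck was at 113 to 126 and 57.1 to 280 CPM. The myeloid list summed to 108.1 to 213.1 CPM in LPS and 108.9 to 198.1 in LPS+ET+KU. NK cell markers summed to at most 7.38 CPM in any of the 8 gradients. In bulk samples such as these, fewer cells of a type and less RNA per cell cannot be told apart.

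Of 7329 genes tested with limma on log2(CPM + 1), 834 (11.4%) were called at an adjusted p under 0.01, 529 higher in LPS+ET+KU (7.22%) and 305 lower (4.16%). Their median change was 1.13 on the log2 scale in absolute value, and 517 changed by more than 1. Monosome CPM follows the amount of an mRNA in the cell as well as its place in the gradient. Total mRNA was not measured in these libraries, so monosome CPM alone cannot tell a change in amount from a shift onto monosomes. The highest LPS gradient lay below the lowest LPS+ET+KU gradient for 659 genes (8.99%), and the reverse held for 400 (5.46%), 14.4% in all. From fractions 5 to 7 alone 1460 genes were called (19.9%; 12.9% higher and 7.07% lower), including 740 of the 834, all 740 in the same direction. Of 360 genes higher by more than 1, 335 were among the 1460, and of 157 lower by more than 1, 133 were. Scaling by TMM, edgeR's trimmed-mean library size, raised the median of all genes from 0.06 to 0.14 and the share of calls that were higher from 63.4% to 73.6%. With the pool block that share was 56.6% by edgeR (1170 higher and 898 lower) and 49.9% by DESeq2 (844 and 847), so the excess of higher calls was not kept under every method. The number of calls was 408, 437 and 483 without the LPS+ET+KU gradient of pool LUL15, LUL18 or LUL17, 528 without the LPS gradient of pool LUL15, and 176 when the pools were not used as a block.

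**Figure D1:**
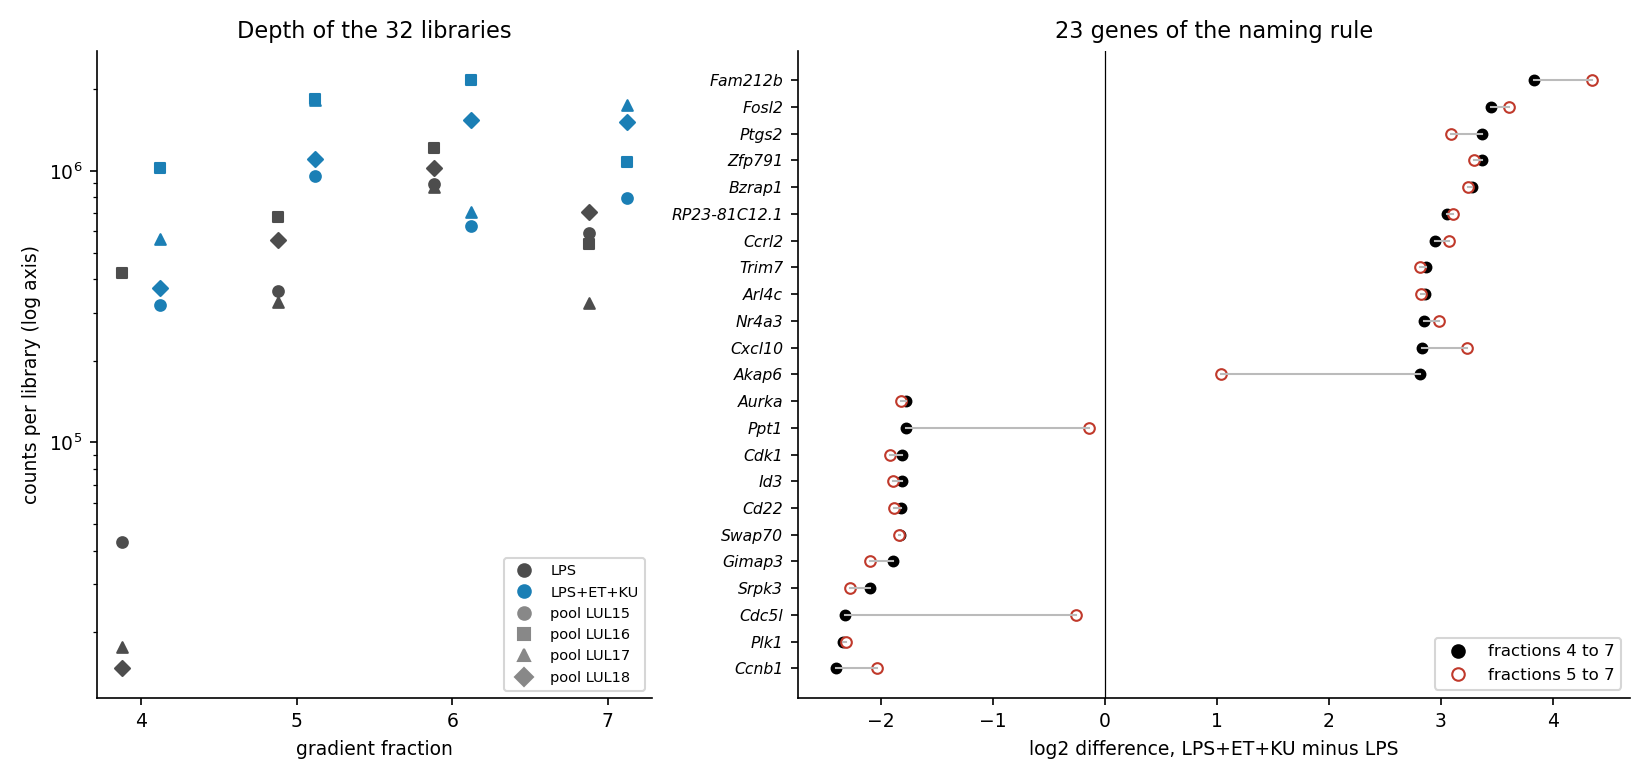
Left, counts in each of the 32 libraries (log axis) by gradient fraction, coloured by treatment and shaped by pool. Right, the log2 difference (LPS+ET+KU minus LPS) of 23 genes among the largest called rises and falls under the naming rule, from fractions 4 to 7 (filled) and 5 to 7 (open). Most pairs of points lie close together, while Cdc5l moves from -2.32 to -0.26 and Ppt1 from -1.78 to -0.14.

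p53 target mRNAs were higher on monosomes of LPS+ET+KU cells with the ATM inhibitor present. Of 29 targets tested, 19 were called higher and 0 lower (65.5%, against 7.22% of all genes called higher), with a list median of 1.35 on the log2 scale against 0.06 for all genes. Cdkn1a (ENSMUSG00000023067, chr17:29090979-29100722), the gene of p21, is described first. In pool order LUL15, LUL16, LUL17 and LUL18, which all values below follow, Cdkn1a stood at 65.4, 22, 32 and 106 CPM in LPS and at 383, 213, 283 and 319 CPM in LPS+ET+KU. The groups did not overlap, and the difference was 2.61 ± 0.24 (SE, adjusted p 5.39e-06), or 3.32 from fractions 5 to 7. The LPS+ET gradients held 424, 394, 316 and 431 CPM, and LPS+ET+KU differed from them by -0.41 (adjusted p 0.406).

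Pmaip1, the gene of the death-promoting BH3 protein Noxa, had 48.7, 44.2, 65.5 and 57.7 CPM in LPS and 452, 206, 425 and 311 CPM in LPS+ET+KU. This rise of 2.62 ± 0.16 (adjusted p 2.02e-07) was larger than any spread within a group. Phlda3, an inhibitor of Akt signalling, went from 11.3, 6.6, 33.5 and 20.5 CPM to 222, 67.3, 96.1 and 93.8 CPM, a difference of 2.75 ± 0.37. Zfp365 and the adenylate kinase gene Ak1 were also called (2.37 ± 0.35 and 2.68 ± 0.45), on few LPS counts, 1 to 4 per gradient for Zfp365 and 0 to 2 for Ak1, so their differences depend on the pseudocount. The 10 targets not called included Fas (0.74, adjusted p 0.0915), the death receptor gene, and Ppm1d (0.33, 0.555), a phosphatase of the p53 loop, both chosen after their values were seen. The count of p53 targets called was 10 without the pool block, 22 from fractions 5 to 7, and 15 to 19 without any single gradient.

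Promoters of p53 targets are shown where the p53 decamer, a stretch of 10 bases that occurs as a pair in a full response element, lay close to the start site. In RefSeq sequence (GRCm38.p6) from 250 bases before to 50 after a start, 8 of the 24 tested targets with a window held the decamer on either strand (33.3%), against 7.6% of 5387 tested genes and 8.4% of all 32851 windows. Of 410 tested genes with the decamer, 34 (8.29%) were called higher, and of those without, 7.01%. Below, each stretch runs 5′ to 3′ over 150 bases, from 120 before the start into the gene, with decamers in capitals, for Cdkn1a (chr17:29090859-29091008, plus strand) and for Gtse1 (chr15:85859826-85859975, plus strand), a microtubule protein gene called higher (1.52, adjusted p 0.00311).
Cdkn1a: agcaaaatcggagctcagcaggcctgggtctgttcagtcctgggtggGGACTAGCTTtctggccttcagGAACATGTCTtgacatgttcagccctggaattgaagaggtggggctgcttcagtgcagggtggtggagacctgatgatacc
Gtse1: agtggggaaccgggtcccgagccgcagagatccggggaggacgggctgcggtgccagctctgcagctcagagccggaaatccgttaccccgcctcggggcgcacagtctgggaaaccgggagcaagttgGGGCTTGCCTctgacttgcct
Cdkn1a and Gtse1 have 2 RefSeq windows each, and the stretch with the most matches is shown. A match is a description of the letters and not a mapped binding site, and matches of different motifs were counted whether or not they overlapped.

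**Figure D2:**
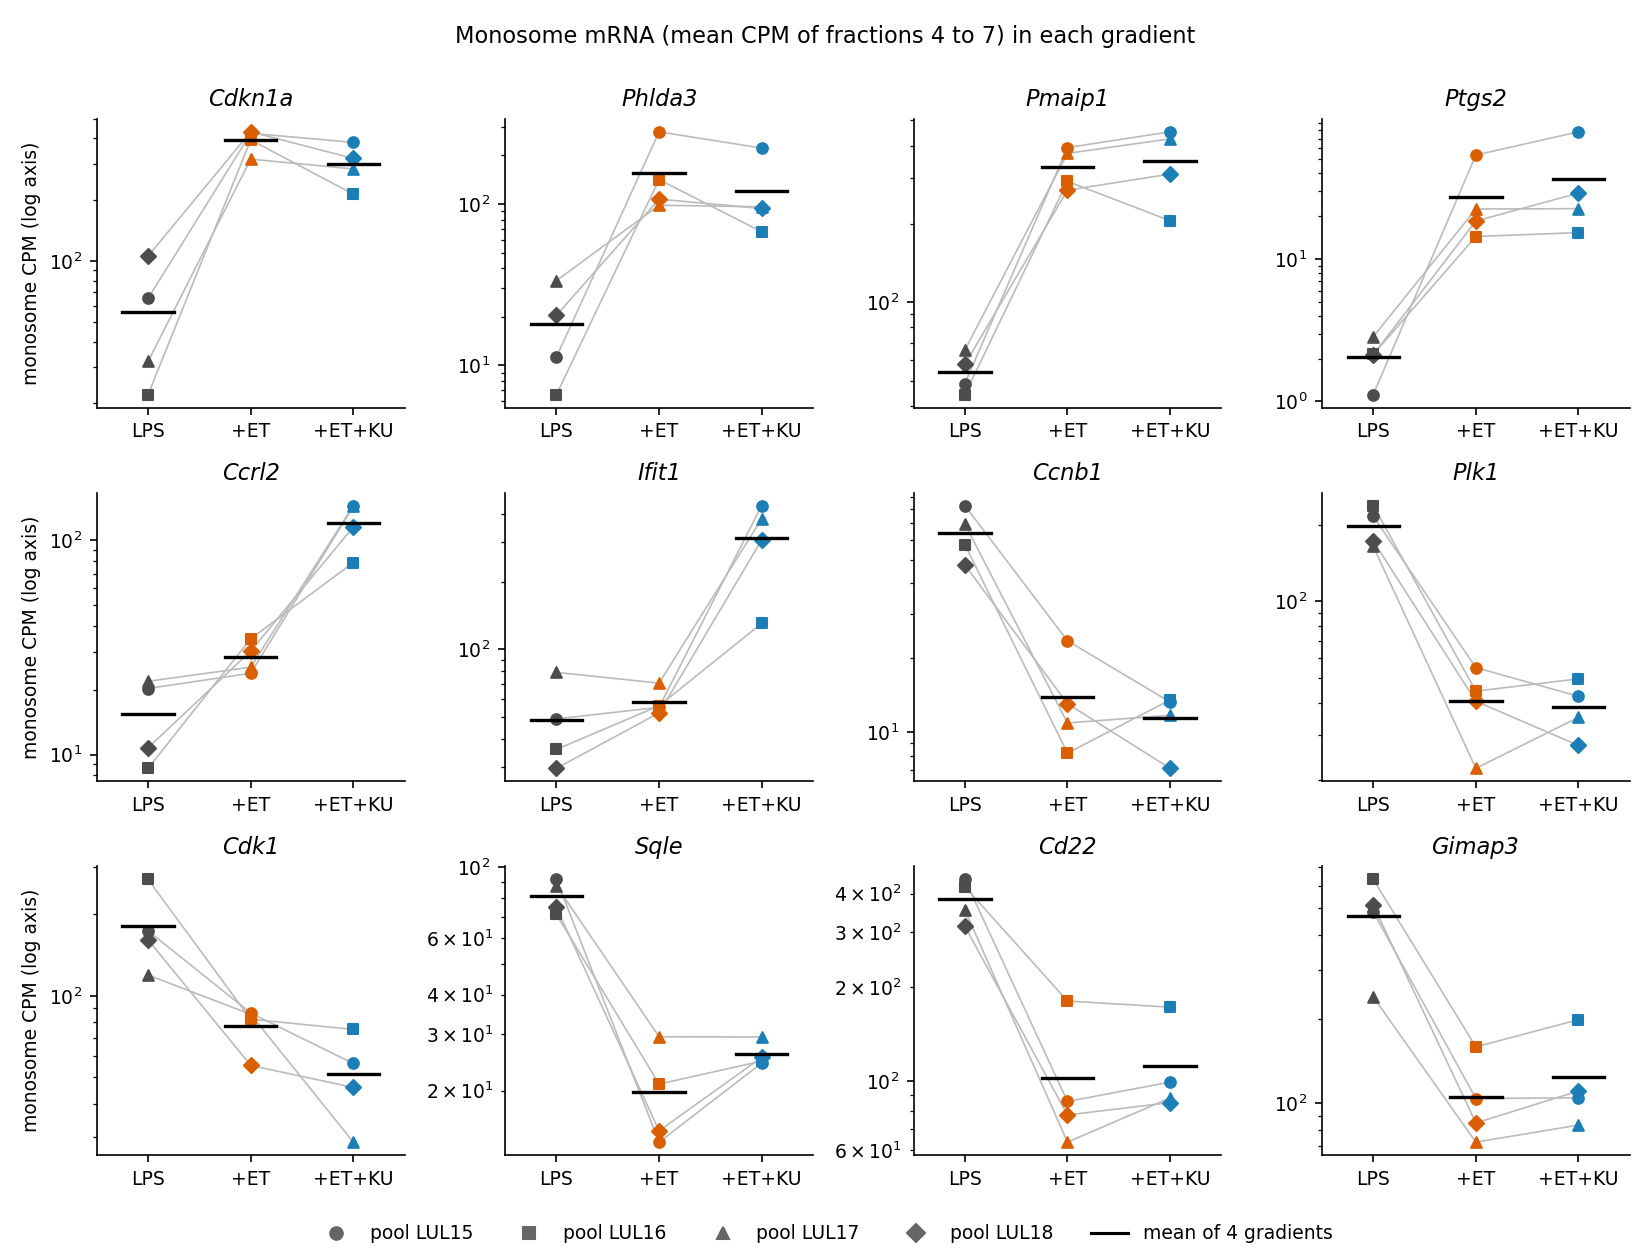
Monosome CPM (mean of fractions 4 to 7, log axis) of 12 genes in each of the 12 gradients, by treatment. Symbols mark pools, grey lines join gradients of a pool and black bars are means of 4. Ccrl2 and Ifit1 are highest in the 4 LPS+ET+KU gradients, whereas Cdkn1a, Pmaip1 and Plk1 are displaced in both etoposide treatments.

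mRNAs of G2 and mitosis were lower on monosomes. Of 35 tested, 16 were called lower and 0 higher (45.7%, against 4.16% of all genes called lower), with a list median of -0.996. Ccnb1, which encodes cyclin B1, the partner of Cdk1 at mitotic entry, had 82.7, 57.5, 69.6 and 47.5 CPM in LPS and 13.2, 13.5, 11.7 and 7.13 CPM in LPS+ET+KU. The lowest LPS gradient was above the highest LPS+ET+KU gradient, and the fall was -2.41 ± 0.27 (adjusted p 1.8e-05). Plk1 (ENSMUSG00000030867, chr7:122159437-122169875), a kinase of spindle assembly, fell from 215, 237, 164 and 172 CPM to 42.5, 49.7, 35.1 and 27.3 CPM, a difference of -2.34 ± 0.19 (adjusted p 2.54e-06). Cdk1, the mitotic kinase itself, fell from 174, 269, 119 and 161 CPM to 56.3, 75.2, 28.8 and 45.9 CPM, a difference of -1.81 ± 0.21. Again the groups did not overlap for either gene. The spindle genes Aurka (-1.77 ± 0.23) and Prc1 (-1.76 ± 0.33) were called as well, while Ttk (-0.10) and Pttg1 (0.34), chosen after their values were seen, were not. Against LPS+ET, 0 of the 35 were called and the list median was -0.20. The count was 10 without the pool block, 22 from fractions 5 to 7, and 11 to 16 without any single gradient.

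Few DNA replication mRNAs were called. Of 39 tested, 1 was called lower (Rpa2, -0.73, adjusted p 0.00565, a single-strand DNA binding subunit) and 0 higher (2.56%, against 11.4% of all genes in either direction), and the list median was -0.12. The call was lost without the pool block and without the LPS gradient of pool LUL15 or LUL18, the LPS+ET gradient of LUL15 or the LPS+ET+KU gradient of LUL15, LUL17 or LUL18, and 4 were called lower without the LPS gradient of LUL16. The helicase genes Mcm2 (-0.07) and Mcm7 (0.25) and the sliding clamp gene Pcna (-0.36), chosen after their values were seen, had adjusted p of 0.797, 0.191 and 0.161. From fractions 5 to 7, 2 replication genes were called lower and 1 higher. Whether this list differs from the mitotic one was not tested.

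The cell cycle genes homology region (CHR, letters TTTGAA), which the DREAM complex is known to bind, was common in the promoters of the mitotic genes. It lay in 22 of the 30 tested members with a RefSeq window (73.3%), against 14.3% of all tested genes and 17.9% of all windows, and the CCAAT box (CCAAT) lay in 26 of 30 (86.7%) against 43.7%. In the replication list CHR was found in 5 of 30 (16.7%) and the CCAAT box in 21 of 30. Among lists described below, the CCAAT box lay in 19 of 23 endoplasmic reticulum genes, 16 of 16 cholesterol genes and 5 of 22 NF-kB genes. It thus did not set the mitotic list apart from the replication, endoplasmic reticulum or cholesterol lists. Among all tested genes with a CHR, 57 of 769 were called lower (7.41%), and among those without, 3.75%. The promoters of 4 mitotic genes called lower are shown for the position of the element, with TTTGAA or its reverse complement in capitals, for Cdk1 (chr10:69352883-69353032, minus strand), Prc1 (chr7:80294331-80294480, plus strand), Hmmr (chr11:40733408-40733557, minus strand) and Ube2c (chr2:164769809-164769958, plus strand).
Cdk1: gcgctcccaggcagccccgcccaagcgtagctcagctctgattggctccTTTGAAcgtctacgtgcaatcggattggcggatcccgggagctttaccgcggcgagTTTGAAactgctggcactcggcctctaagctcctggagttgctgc
Prc1: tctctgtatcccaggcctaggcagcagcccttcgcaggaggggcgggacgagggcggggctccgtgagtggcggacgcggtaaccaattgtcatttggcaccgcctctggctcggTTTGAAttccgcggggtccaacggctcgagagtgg
Hmmr: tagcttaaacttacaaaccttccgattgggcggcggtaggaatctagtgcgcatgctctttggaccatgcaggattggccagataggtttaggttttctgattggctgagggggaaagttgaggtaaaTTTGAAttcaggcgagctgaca
Ube2c: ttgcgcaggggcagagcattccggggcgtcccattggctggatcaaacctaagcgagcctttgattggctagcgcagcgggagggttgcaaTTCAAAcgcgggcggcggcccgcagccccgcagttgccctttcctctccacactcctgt
Hmmr, a spindle protein gene, changed by -1.51 (adjusted p 0.000193) and Ube2c, which encodes a ubiquitin-conjugating enzyme of the anaphase-promoting complex, a difference of -1.49 (1.14e-05), both chosen for their element after their values were seen. In Cdk1 the element occurred 2 times. Prc1 has 2 RefSeq windows, and the stretch with the most matches is shown.

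Immediate early genes, which encode fast transcription factors and phosphatases, were called higher for 11 of 31 and lower for 2 (41.9%, against 11.4% of all genes in either direction), with a list median of 0.72. Jun, the AP-1 subunit, rose from 13.3, 17.9, 14.5 and 29.8 CPM to 90.3, 50.3, 154 and 95.1 CPM, by 2.27 ± 0.26 (adjusted p 2.14e-05). All 4 treated gradients exceeded all 4 LPS gradients. Fosl2, another AP-1 subunit, rose by 3.45 ± 0.37 and the nuclear receptor gene Nr4a3 by 2.85 ± 0.34, on 0 to 4 and 3 to 5 LPS counts per gradient, so both differences depend on the pseudocount. Dusp5, a phosphatase of ERK, rose by 2.11 ± 0.39, and Ier5l by 2.30 ± 0.40. The 2 lower members were Egr1 (-1.10, adjusted p 0.00167) and Klf2 (-1.73, 2.04e-05), which encode zinc finger factors; Klf2 was chosen after its values were seen. The number called higher was 6 without the pool block and 7 without the LPS+ET+KU gradient of pool LUL15 or LUL17. From fractions 5 to 7, 12 were higher and 5 lower with a median of 0.40, and among the 15 members left by a filter at 100 counts the median was 0.01.

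The largest rise that met the naming rule was in Fam212b (ENSMUSG00000048458, chr3:105704599-105720842), with 3.90, 2.17, 1.52 and 18.2 CPM in LPS and 123, 35.4, 85.4 and 77.8 CPM in LPS+ET+KU. This was a difference of 3.83 ± 0.41 (adjusted p 1.44e-05), and the highest LPS gradient stayed below the lowest of LPS+ET+KU. Ptgs2, which encodes cyclooxygenase 2 of prostaglandin synthesis, rose from 1.12, 2.14, 2.85 and 2.13 CPM to 78.2, 15.3, 22.6 and 29 CPM, by 3.37 ± 0.40. The chemokine receptor-like gene Ccrl2 rose from 20.3, 8.62, 22 and 10.8 CPM to 144, 78.9, 145 and 116 CPM, by 2.95 ± 0.27. Both had separate groups. Further rises were called in Bzrap1 (3.28), Trim7 (2.87), a ubiquitin ligase gene, and Arl4c (2.86), a small GTPase gene. Zfp791 (3.37) was counted in an intron and on 0 to 5 LPS counts per gradient. Akap6 (2.82), which encodes a kinase anchoring protein, was counted in an intron 317288 bases from a transcript end and stood at 1.04 (adjusted p 0.045) from fractions 5 to 7. RP23-81C12.1 is a processed transcript named Gm26917 in GENCODE M21, and it met the naming rule only under its clone name. It held 156, 121, 329 and 328 CPM in LPS and 2320, 333, 3788 and 3391 CPM in LPS+ET+KU. This was a rise of 3.06 ± 0.31 that was smallest in pool LUL16.

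Interferon-response genes, which carry antiviral proteins and chemokines, rose in part. Of 39 tested, 7 were called higher and 0 lower (17.9%, against 7.22%), and the list median was 0.33. Ifit1 (ENSMUSG00000034459, chr19:34640871-34650009), which binds foreign RNA caps, stood at 49.1, 35.9, 79.1 and 29.6 CPM in LPS and 437, 131, 382 and 307 CPM in LPS+ET+KU. It was higher in every treated gradient than in any LPS gradient, by 2.64 ± 0.24 (adjusted p 4.34e-06). Ccl5, a chemokine gene, rose from 67.0, 61.9, 39.4 and 60.1 CPM to 301, 237, 236 and 288 CPM, by 2.22 ± 0.15 (adjusted p 3.21e-07). Cxcl10, another chemokine gene, went from 7.23, 3.20, 2.88 and 2.76 CPM to 63.9, 7.00, 58.5 and 40.9 CPM, by 2.83 ± 0.45 (adjusted p 0.000407). For Cxcl10 the LPS+ET+KU gradient of pool LUL16 lay below the highest LPS gradient, so the groups overlapped. Ifit2 (1.27 ± 0.26) and Gbp5 (1.39 ± 0.31) completed the 5 named by rule, and Isg15 (0.54, adjusted p 0.159), a ubiquitin-like modifier chosen after its values were seen, was not called. Without the LPS+ET+KU gradient of pool LUL16 the count was 9, and without that of any other pool it was 3. Dropping the LUL15 gradient from LPS left 4.

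The interferon-stimulated response element (ISRE, GAAA, any 2 bases, GAAA, on either strand) lay in 17 of the 28 listed genes with a window (60.7%), against 4.0% of tested genes. Of 215 tested genes with the element, 14 (6.51%) were called higher, and of those without, 7.13%. The Ifit1 promoter is shown since it holds the element 2 times in a gene called higher (chr19:34640769-34640918, plus strand), with both matches in capitals as they read on the other strand.
Ifit1: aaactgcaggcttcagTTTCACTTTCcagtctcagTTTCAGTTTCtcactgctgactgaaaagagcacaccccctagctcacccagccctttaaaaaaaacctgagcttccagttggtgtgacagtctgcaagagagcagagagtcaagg

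Ccr7, a chemokine receptor gene that was listed among T cell markers and that B cells also express, rose from 69.9, 61.4, 45.5 and 41.2 CPM to 175, 192, 168 and 184 CPM, by 1.73 ± 0.18 (adjusted p 1.11e-05). The groups did not overlap. The T cell list summed to 175.7 to 206.6 CPM in LPS and 244 to 485.4 CPM in LPS+ET+KU, and over 17 genes with counts only Ccr7 and 1 other passed the filter. Among the T cell markers given above Cd3e and Cd3g were near 0, while Lck reached 280 CPM in LPS+ET+KU, and the part of T cells in the Ccr7 value was not tested.

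The integrated stress response, in which phosphorylation of eIF2 slows initiation while Atf4 and its targets rise, gave 9 of 33 called higher and 1 lower (30.3%, against 11.4%), with a list median of 0.46. Ppp1r15a, which encodes the subunit that directs a phosphatase to eIF2, rose from 24.9, 38.3, 8.88 and 37.4 CPM to 158, 149, 86.3 and 170 CPM, by 2.46 ± 0.22 (adjusted p 4.34e-06). Its groups were separate. Sesn2 (1.75 ± 0.16) and Ddit4 (1.3 ± 0.18), inhibitors of mTORC1 that are on the p53 list as well, were called higher, as were Cebpg (1.33 ± 0.20) and Cebpb (1.31 ± 0.19), genes of bZIP factors. Asns, of asparagine synthesis (0.81, adjusted p 0.0095), and Gars, of glycyl-tRNA synthesis (0.70, 0.00851), chosen for their promoters after their values were seen, rose, while Atf4 itself stood at 0.12 (0.455). Pycr1, of proline synthesis, was called lower at -1.11 (0.0043) and stood at 0.03 from fractions 5 to 7. The count of higher members was 3 without the pool block and 5 to 10 without any single gradient, with 5 without the LPS+ET+KU gradient of pool LUL15, and 6 without the LPS gradient of LUL15 or LUL16 or the LPS+ET+KU gradient of LUL16 or LUL18.

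The C/EBP-ATF response element (CARE, searched as TGATGNAA on either strand), where Atf4 is known to bind, lay in 8 of 27 listed genes with a window (29.6%), against 2.8% of tested genes. It is shown in capitals for 3 members that were called, Pycr1 (chr11:120643719-120643868, minus strand), Asns (chr6:7693180-7693329, minus strand) and Gars (chr6:55037881-55038030, plus strand, where it reads on the other strand).
Pycr1: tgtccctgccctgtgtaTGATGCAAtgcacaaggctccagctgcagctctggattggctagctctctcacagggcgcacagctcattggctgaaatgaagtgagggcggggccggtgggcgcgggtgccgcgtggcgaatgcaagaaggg
Asns: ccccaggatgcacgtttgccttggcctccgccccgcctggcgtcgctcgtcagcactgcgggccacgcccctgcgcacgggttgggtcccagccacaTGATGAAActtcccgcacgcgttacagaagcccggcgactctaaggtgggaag
Gars: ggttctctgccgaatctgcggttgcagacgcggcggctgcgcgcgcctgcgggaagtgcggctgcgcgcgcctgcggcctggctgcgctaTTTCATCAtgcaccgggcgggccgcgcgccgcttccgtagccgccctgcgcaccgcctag

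NF-kB and inflammatory genes gave 5 of 30 called higher and 1 lower (20.0%, against 11.4%), with a median of 0.29. Beside Ptgs2 and Ccrl2 these were Nfkb2 (1.00 ± 0.16), a subunit of the alternative pathway, Nfkbid (0.87 ± 0.15) and Nfkbib (0.48, adjusted p 0.00873, chosen after its values were seen), which encode IkB proteins. Cd83, an activation marker, was lower by -0.60 ± 0.14. The inhibitor gene Nfkbia (0.20, adjusted p 0.181) and Tnf (-1.17, 0.0331), chosen after their values were seen, did not pass. Without the pool block 2 were called higher and 0 lower. The call of Cd83 was lost without the LPS gradient of pool LUL15, LUL16 or LUL18 or the LPS+ET+KU gradient of the same pools.

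Of 27 B cell identity mRNAs tested, 9 were called lower on monosomes, 2 higher and 16 not at all (40.7% called, against 11.4%), with a list median of -0.56. Cd22, an inhibitory co-receptor of the B cell receptor, fell from 444, 421, 355 and 314 CPM to 99.1, 173, 88.1 and 85.2 CPM, a difference of -1.83 ± 0.17 (adjusted p 5.87e-06). The groups were separate, with the LPS+ET+KU gradient of pool LUL16 highest of its group. Fcer2a, the low-affinity IgE receptor CD23, changed by -1.67 ± 0.27, and Ciita, the activator of class II MHC genes, a difference of -1.23 ± 0.26. Ebf1, a factor of the B lineage, changed by -1.64 ± 0.34, and by -0.70 from fractions 5 to 7. The Src family kinase gene Lyn changed by -0.94 ± 0.21. The 2 higher members were class II MHC genes, H2-DMa (0.77, adjusted p 0.00299) and H2-Eb1 (0.57, 0.00212), chosen after their values were seen. The number called lower was 2 without the pool block, and 3, 4, 4 and 3 without the LPS gradient of pool LUL15 or the LPS+ET+KU gradient of LUL15, LUL17 or LUL18, and it was 5 without the LPS gradient of LUL17.

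The plasma cell programme, which LPS itself sets off, gave 5 of 18 called lower and 0 higher (27.8%, against 4.16%), with a median of -0.57. Prdm1, which encodes Blimp-1, the factor that drives plasma cell fate, stood at 33.2, 32.8, 58.9 and 34.7 CPM in LPS and 10.1, 5.59, 23.6 and 15.7 CPM in LPS+ET+KU. Every treated gradient was below every LPS gradient, and the fall was -1.59 ± 0.25 (adjusted p 0.000381). Irf4, which acts ahead of Prdm1, fell from 111, 116, 151 and 120 CPM to 60.3, 61.2, 73.5 and 62.4 CPM, a difference of -0.94 ± 0.16 (adjusted p 0.000602). Of the other listed members, Irf8 changed by -1.33 ± 0.15 and the lambda light chain gene Iglc2 by -1.06 ± 0.18. Whether each listed member promotes plasma cell fate was not tested. In heavy polysomes the list median was -0.04. Ighm (-0.27, adjusted p 0.0687), the heavy chain of IgM, chosen after its values were seen, was not called. The count was 1 without the pool block and 4 to 7 without any single gradient. From fractions 5 to 7, 6 members were called lower and 1 higher.

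Chaperones and degradation factors of the endoplasmic reticulum gave 7 of 30 called lower and 2 higher (30.0%, against 11.4%), with a list median of -0.46. Syvn1, a ubiquitin ligase of the endoplasmic reticulum, changed by -1.26 ± 0.20, the disulfide isomerase genes Pdia4 and Pdia6 by -1.15 ± 0.23 and -1.03 ± 0.14, and Derl3 by -1.08 ± 0.24. Sec61a1, the channel of the translocon, was higher by 0.94 ± 0.17. Hspa5, the chaperone BiP, was at -0.49 (adjusted p 0.0615, chosen after its values were seen). In heavy polysomes the list median was -0.09. The number called lower was 3 without the pool block and 4 to 10 without any single gradient, with 4 without the LPS+ET+KU gradient of pool LUL15.

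Genes of cholesterol synthesis and uptake gave 6 of 26 called lower and 0 higher (23.1%, against 4.16%), with a list median of -0.52. Sqle, an enzyme of sterol synthesis, stood at 91.7, 71.3, 87.5 and 74.9 CPM in LPS and 24.4, 24.7, 29.4 and 25.4 CPM in LPS+ET+KU. The groups did not overlap, with a difference of -1.61 ± 0.22 (adjusted p 0.000111). Hmgcs1 (-1.27 ± 0.21) and Fasn (-1.07 ± 0.19), which encode further enzymes of sterol and fatty acid synthesis, and Srebf2 (-1.04 ± 0.21), the factor that activates them, were called. The CCAAT box lay in 16 of 16 listed genes with a window, against 43.7% of tested genes. It was also common in the mitotic list (26 of 30) and in the replication list (21 of 30), where 1 of 39 genes was called. The number of cholesterol genes called lower was 2 without the pool block, 4 without the LPS+ET+KU gradient of pool LUL15 or LUL17, and 10 without the LPS gradient of LUL16. From fractions 5 to 7, 7 cholesterol genes were called lower and 2 higher.

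Other falls that met the naming rule were in Gimap3, a GTPase gene of lymphocytes (-1.89 ± 0.15), Srpk3 (-2.10 ± 0.33), a splicing factor kinase gene, Swap70 (-1.83 ± 0.32), an actin regulator of B cells, and Id3 (-1.81 ± 0.31), an inhibitor of E proteins. Id3 differed between pools within a treatment, with 115, 112, 2.48 and 41.4 CPM in LPS and 19.6, 23, 1.37 and 9.85 CPM in LPS+ET+KU, so its groups overlapped while 4 of 4 pools fell. Cdc5l and Ppt1, with -2.32 and -1.78 from fractions 4 to 7, stood at -0.26 and -0.14 from fractions 5 to 7. Cdc5l was counted in an intron.

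**Figure D3:**
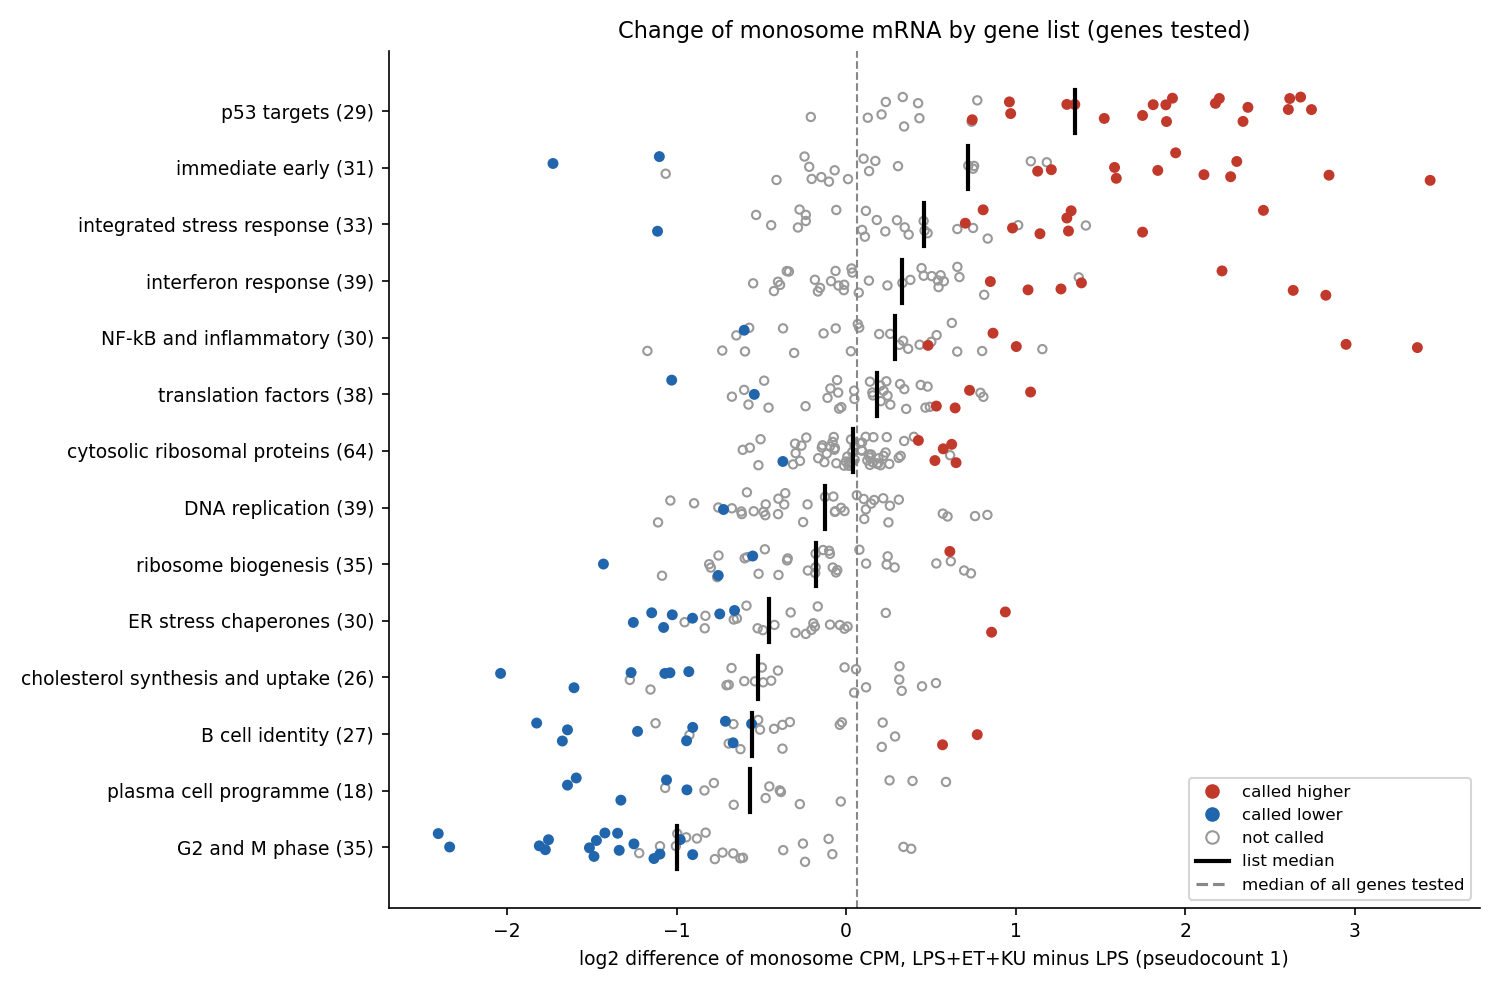
Log2 difference of monosome CPM (LPS+ET+KU minus LPS, pseudocount 1) for every tested gene of 14 lists. Filled red and blue points were called higher and lower, open points were not called, black bars are list medians and the dashed line is the median of all genes tested, 0.06. p53 targets lie farthest to the right (median 1.35) and genes of G2 and mitosis farthest to the left (median -0.996).

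mRNAs of the translation machinery were called in both directions, at shares near that of all genes. Of 64 cytosolic ribosomal protein genes tested, 5 were called higher and 1 lower (9.38%, against 11.4%), with a median of 0.04 that became 0.13 under TMM scaling and -0.01 from fractions 5 to 7, so no direction held. The number called higher was 0 without the pool block, 1 without the LPS gradient of pool LUL15 or the LPS+ET+KU gradient of LUL15 or LUL18, 2 without the LPS+ET+KU gradient of LUL16 and 3 without the LPS gradient of LUL16. The higher members included Rpl22 (0.57 ± 0.09) and Rpl4 (0.43 ± 0.09). All 79 such genes together took a share of monosome CPM of 16.1 ± 1.54% in LPS and 17.7 ± 1.03% in LPS+ET+KU (SD, n = 4), higher in 4 of 4 pools, with an exact permutation p of 0.143 (two-sided, over 70 splits, smallest possible 0.0286) and an exact sign flip test over pools at the smallest p that 4 pairs allow. The difference of 1.61 percentage points was 0.863 from fractions 5 to 7, where 3 of 4 pools were higher (exact permutation p 0.514), and 0.89 without the LPS gradient of pool LUL18. Translation factors gave 4 of 38 higher and 2 lower (15.8%, against 11.4% of all genes). The number lower was 0 without the LPS or LPS+ET+KU gradient of pool LUL15 or LUL17, and the number higher was 2 without the LPS+ET+KU gradient of LUL15 or LUL18. Eif1, of start codon selection, rose from 429, 470, 390 and 370 CPM to 825, 1061, 950 and 719 CPM, by 1.09 ± 0.10 (adjusted p 5.75e-06), with separate groups, and Eif4e, the cap-binding protein, was lower by -1.03 ± 0.22. Ribosome biogenesis genes gave 1 of 35 higher (Npm1, 0.61 ± 0.11) and 3 lower (11.4%, the same share as of all genes). Dkc1 (-1.43 ± 0.22), the pseudouridine synthase, was among the 3 lower. From fractions 5 to 7, 3 of these genes were higher and 7 lower.

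The 7 genes of mitochondrial DNA took 10.6 ± 1.22% of monosome CPM in LPS and 6.75 ± 4.32% in LPS+ET+KU, lower in 4 of 4 pools (exact permutation p 0.114, two-sided; the exact sign flip test was again at its smallest p). The LPS+ET+KU gradient of pool LUL16 was at 0.731%, and without it the difference was -1.87 percentage points in place of -3.88. These mRNAs are made and translated inside mitochondria, so they do not report on cytosolic ribosomes. Of the 7 that were tested, 1 was called higher (mt-Co1, 0.62 ± 0.15) and 0 lower. The mt-Co1 call was lost from fractions 5 to 7, without the pool block, without the LPS gradient of pool LUL15 or LUL17, without any 1 of the LPS+ET gradients, and without the LPS+ET+KU gradient of LUL15, LUL17 or LUL18. Mitochondrial ribosomal protein genes (1 of 68 higher and 2 lower), nuclear genes of the respiratory chain (3 of 75 and 2), the proteasome (1 of 35 and 1), glycolysis (2 of 22 and 0), RNA granule proteins (0 of 17 and 1) and histones (0 of 3 and 0) were called at 0 to 9.09% of members, against 11.4% of all genes. Both glycolysis calls (Aldoa and Pkm) were lost without the LPS+ET+KU gradient of pool LUL16. Immunoglobulin genes held 3.30 ± 0.816% of CPM in LPS and 2.58 ± 1.2% in LPS+ET+KU (exact permutation p 0.4), and protein coding genes 83.0 ± 1.76% and 82.1 ± 2.33% (0.6). These 4 shares form 1 family of tests, none below 0.05 before adjustment.

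Heavy polysomes of the same gradients (fractions 11 to 16) gave 1656 called genes by the same test (22.6%; 13.5% higher and 9.11% lower). Of the 834 genes called in monosomes, 419 were called in the same direction in heavy polysomes, 393 were not called there and 22 were called in the opposite direction. p53 targets were called higher for 25 of 29 in heavy polysomes with a median of 2.26, and mitotic genes lower for 22 of 35 with a median of -1.19. Cdkn1a rose by 4.65 there against 2.61 in monosomes, a difference between the classes of 2.04 (adjusted p 0.0181) that became 1.33 (0.0074) from fractions 5 to 7.

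**Figure D4:**
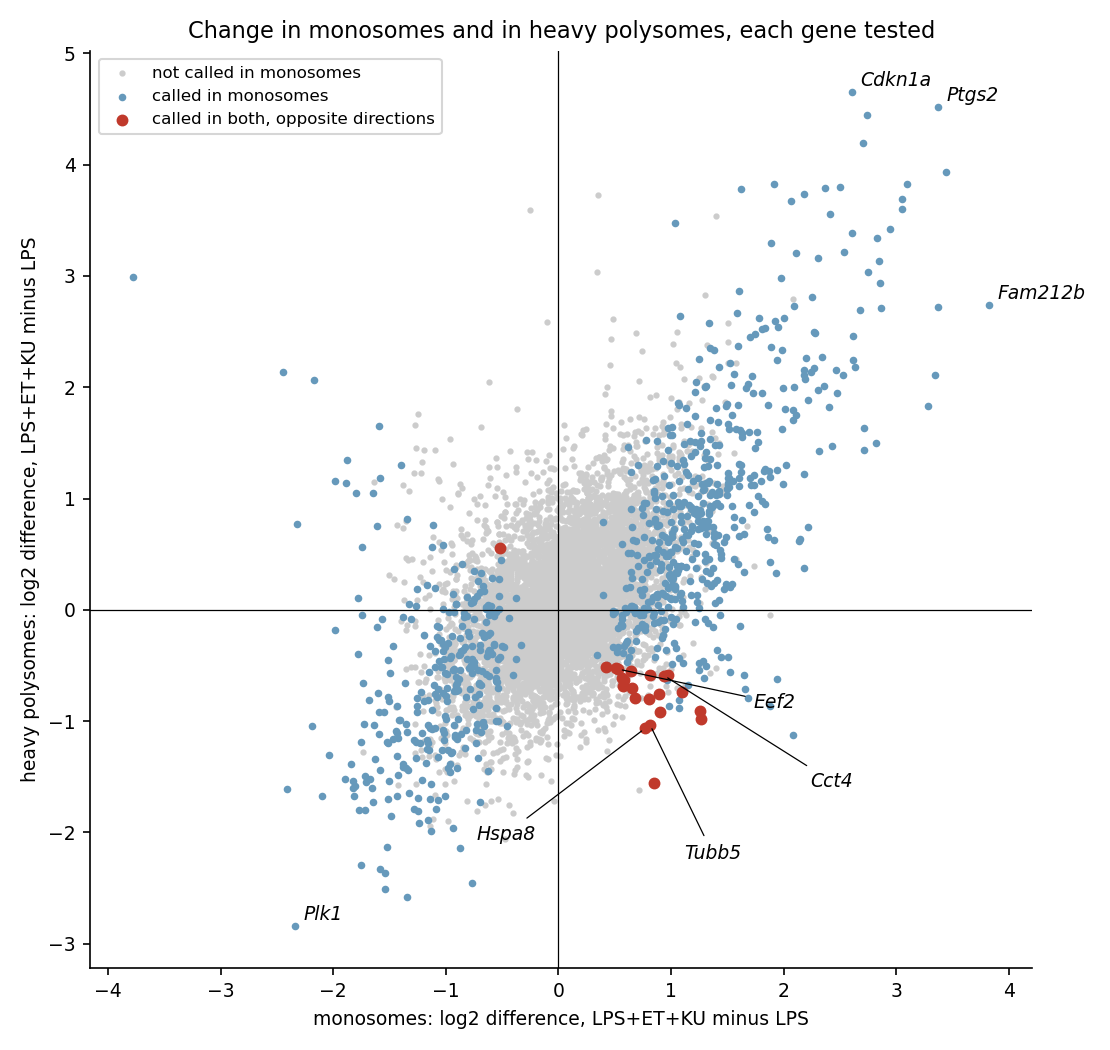
Log2 difference (LPS+ET+KU minus LPS) in heavy polysomes against that in monosomes for each of 7329 genes, with genes called in monosomes in blue and the 22 genes called in opposite directions in red. Of the 22, 21 lie at the lower right, higher in monosomes and lower in heavy polysomes.

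Of the 22 genes with opposite calls, 21 were higher in monosomes and lower in heavy polysomes, and the only reverse case was Ccdc134. Named because the count is small and not by rule, the 16 protein coding genes among the 21 encode parts of the translation machinery (Rpl4, Eef2, and Vars, a valyl-tRNA synthetase), folding proteins (Hspa8, a heat shock 70 chaperone, and Cct4, a chaperonin subunit), the cytoskeleton (Tubb5, a beta tubulin, and Sept6, a septin), and mitochondrial membrane proteins (Vdac2, a porin, and Phb2, a prohibitin). They also include Tkt, of the pentose phosphate pathway, Pa2g4, Nap1l1, Ola1, Dazap1, Tcf25 and Ap3b1. The other 5 (Gm10071, Gm3222, Gm15459, Gm4609 and Gm15191) are annotated as pseudogenes, and their counts may hold reads of the parent genes. With fractions 5 to 7 in place of 4 to 7, 18 of the 22 were called in monosomes, and the difference between the classes was itself called for 9. The monosome calls of Sept6, Vars, Vdac2, Gm15191 and Ccdc134 were each lost for 10 or 11 of the 12 gradients left out in turn, those of Eef2 and Gm3222 for 5, Rpl4, Dazap1 and Gm10071 for 4, Nap1l1 for 3, Ola1 and Phb2 for 2, Ap3b1 for 1 and the other 8 for 0. Without the pool block, the monosome call was lost for all of the 22 but the pseudogenes Gm15459 and Gm4609.

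Tubb5 (ENSMUSG00000001525, chr17:35833926-35838306) stood at 2936, 4033, 1960 and 2498 CPM in LPS monosomes and 4437, 11496, 2938 and 3708 CPM in LPS+ET+KU. The groups overlapped, but all 4 pools rose, by 0.82 ± 0.14 (adjusted p 0.000617). In heavy polysomes it went from 4983, 7175, 2992 and 3344 CPM to 2361, 5038, 1056 and 1614 CPM, lower in all 4 pools by -1.03 ± 0.16 (adjusted p 0.00041). The difference between the classes was -1.85 ± 0.23 (adjusted p 0.00474).

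Hspa8 held 838, 904, 625 and 581 CPM in LPS monosomes and 1719, 1436, 879 and 1071 CPM in LPS+ET+KU, a rise of 0.77 ± 0.10 in 4 of 4 pools with overlapping groups. In heavy polysomes it held 897, 989, 415 and 400 CPM in LPS and 420, 282, 257 and 250 CPM in LPS+ET+KU, a fall of -1.07 ± 0.20. Eef2, the elongation factor that moves the ribosome along mRNA, rose from 7807, 8081, 8680 and 7754 CPM to 9932, 18066, 10436 and 9931 CPM in monosomes (0.53 ± 0.12) and fell from 5764, 5834, 5131 and 3980 CPM to 4068, 3498, 4154 and 2652 CPM in heavy polysomes (-0.53 ± 0.13). Its monosome groups did not overlap, and the treated gradient of pool LUL16 was the highest. Cct4 (0.94 ± 0.15 and -0.59 ± 0.13) and Tkt (0.89 ± 0.14 and -0.76 ± 0.10) followed the same course.

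**Figure D5:**
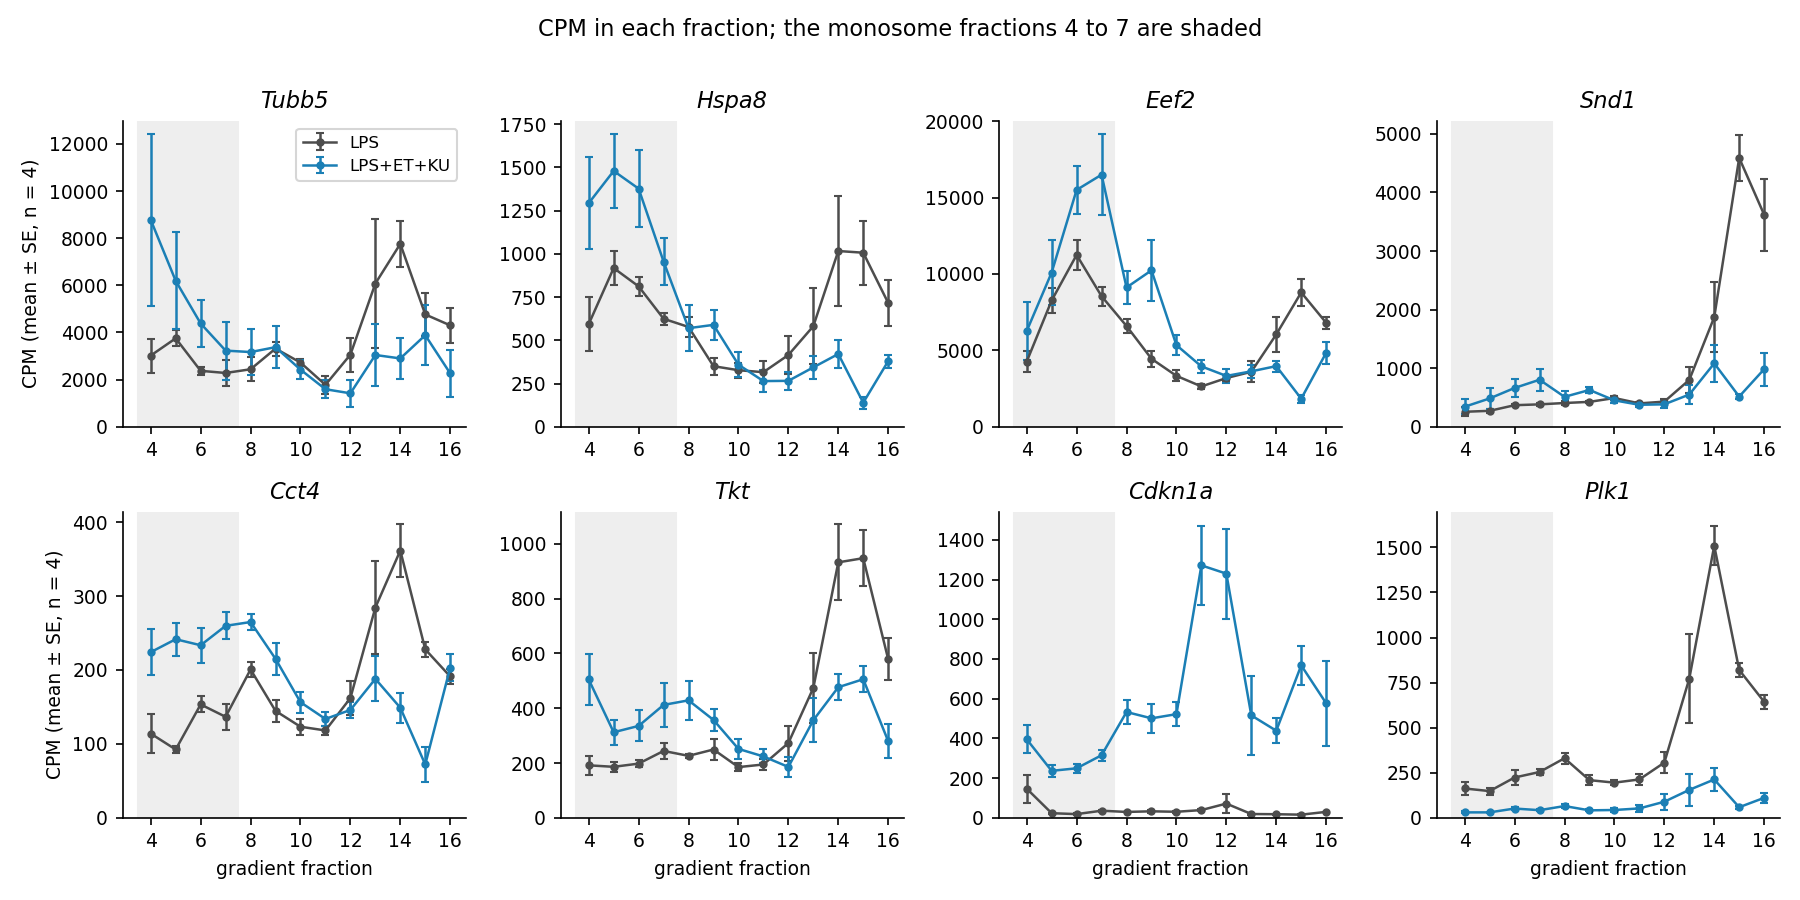
CPM in fractions 4 to 16 (mean ± SE of 4 gradients) of 8 genes in LPS (grey) and LPS+ET+KU (blue), with the monosome fractions shaded. Tubb5, Hspa8, Eef2, Snd1, Cct4 and Tkt lie above LPS in the shaded fractions and below it in fractions 14 and 15, Cdkn1a is higher and Plk1 lower in every fraction.

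The change in heavy polysomes minus the change in monosomes was called for 40 genes (0.546%; 14 higher, 0.191%, and 26 lower, 0.355%), and 1823 had an unadjusted p under 0.05. Leaving out single gradients moved this count. The value fell to 0 when the gradient of pool LUL15 or LUL18 was dropped from LPS, that of LUL15 from LPS+ET or that of LUL15, LUL17 or LUL18 from LPS+ET+KU. It became 1 without LPS LUL16, 2 without LPS+ET+KU LUL16, 10 and 18 without LPS+ET LUL18 and LUL16, and 61 without LPS LUL17. From fractions 5 to 7 it was 65 (0.887%; 0.205% higher and 0.682% lower), of which 30 were among the 40. Snd1, a subunit of the RNA-induced silencing complex and a transcriptional coactivator, held 305, 340, 268 and 365 CPM in LPS monosomes and 428, 1055, 401 and 406 CPM in LPS+ET+KU, separate groups with a difference of 0.71 that was not called (adjusted p 0.0133). In heavy polysomes Snd1 fell from 1969, 2224, 1800 and 1813 CPM to 687, 857, 588 and 461 CPM, a difference of -1.62, and the difference between the classes was -2.33 ± 0.28 (adjusted p 0.00474), -2.43 from fractions 5 to 7. Serpine2, a protease inhibitor gene, was higher by 1.03 in monosomes and 3.47 in heavy polysomes, with a difference of 2.44. Other differences were -3.21 in RP23-239A11.1, -2.56 in Gm12671, -2.41 in Gm3222 and -2.25 in Gm15191, all pseudogenes, and -2.47 in Ndst3, counted in an intron. On the other side 4930558K02Rik (3.85) and Myh13 (3.23), both counted in introns, Cdc42bpg (2.69), mt-Nd6 (2.67) and Gpkow (1.71) were not called from fractions 5 to 7.

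Syvn1 was the gene of the endoplasmic reticulum list with a called difference between the classes (1.44 ± 0.21, adjusted p 0.00743), at -1.26 in monosomes and 0.19 in heavy polysomes, where it was not called (0.314). Along the monosome region itself, the change in fractions 6 and 7 minus that in fractions 4 and 5 was called for 0 genes by limma (0%; 796 at an unadjusted p under 0.05, smallest adjusted p 0.143) and for 135 by edgeR with the pool block.

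The mRNAs that the study follows for their granule and p53 biology were not called in monosomes by limma, apart from Cdkn1a. Trp53 (ENSMUSG00000059552, chr11:69580359-69591873), the p53 gene, stood at 121, 161, 106 and 124 CPM in LPS and 79.7, 114, 93.8 and 100 CPM in LPS+ET+KU. The groups overlapped, lower in 4 of 4 pools, with a difference of -0.40 ± 0.17 (adjusted p 0.111). In heavy polysomes of the same gradients Trp53 was higher by 0.53 (adjusted p 0.00669), and the difference between the classes of 0.93 was not called (0.0712). H2-K1, a class I MHC gene, was at 0.48 ± 0.17 (adjusted p 0.0471), but it passed under 7 of 26 alternatives, among them fractions 5 to 7 (0.72, adjusted p 0.000117), TMM scaling and leaving out the LPS gradient of pool LUL18. Pabpc1, the poly(A) binding protein, was at 0.32 ± 0.13 (0.099), and Hif1a, the hypoxia factor, at 0.06 ± 0.16 (0.819). The granule protein genes Tia1 (-0.21) and Tial1 (0.01) and the cyclin gene Ccnd2 (-0.05) had adjusted p of 0.551, 0.972 and 0.872. For Hif1a, Tial1 and Ccnd2 the sign changed under some settings. Gadd45a, a p53 target with 5 to 51 summed counts per LPS or LPS+ET+KU gradient, was too sparse to be tested.

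Against LPS+ET, which had etoposide and no inhibitor, 79 genes were called in monosomes (1.08%; 57 higher, 0.778%, and 22 lower, 0.3%). The balance turned with the pool block in edgeR (223 higher and 279 lower) and DESeq2 (201 and 240). The count was 22, 24 and 34 without the LPS+ET+KU gradient of pool LUL17, LUL18 or LUL15, 25, 32 and 32 without the LPS+ET gradient of LUL15, LUL17 or LUL18, 124 and 162 without the LPS gradient of LUL18 or LUL16, 2 without the pool block, and 420 (5.73%; 3.34% higher and 2.39% lower) from fractions 5 to 7, with 78 of the 79 shared. The LPS+ET+KU gradients enter both comparisons, so the values are given side by side. Fractions 4 to 7 summed to 1397768 to 1857161 counts in LPS+ET gradients and 2702618 to 6102279 in LPS+ET+KU gradients. Depth and inhibitor therefore cannot be told apart here either. Cxcl10 stood at 2.71, 1.90, 3.67 and 0.731 CPM in LPS+ET, below each LPS+ET+KU gradient, with a difference of 3.46 ± 0.45 against 2.83 from LPS. Ifit2 stood at 10.5, 7.22, 8.37 and 8.90 CPM in LPS+ET. The LPS gradients held 33.3, 11.0, 36.1 and 27 CPM of it, and those of LPS+ET+KU 71.0, 28.9, 90.5 and 72.0 CPM. It was thus lowest with etoposide alone, and the difference of LPS+ET+KU from LPS+ET was 2.67 ± 0.26 (adjusted p 4.78e-05). Ifit1 (2.28 ± 0.24) and Ccrl2 (2.01 ± 0.27) were also higher, and 5 of the 39 interferon genes were called higher and 0 lower (against 0.778% of all genes), with a median of 0.56 against 0.03 for all genes. Per1, of the circadian clock (1.87 ± 0.26), was at 0.01 from LPS, and Tsc22d3, a glucocorticoid target (2.15 ± 0.41), was at 1.09.

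Cdh23, which encodes a cadherin, had the largest fall against LPS+ET, from 242, 157, 289 and 486 CPM to 3.11, 1.51, 3.12 and 3.62 CPM, a difference of -6.18 ± 0.36 (adjusted p 8.95e-08), with LPS at 4.66, 2.66, 9.17 and 42.0 CPM. Its counted site lies in an intron 68967 bases from a transcript end. Egr1 stood at 132, 64.2, 68.0 and 57.7 CPM in LPS+ET and 35.2, 18, 20.8 and 20.0 CPM in LPS+ET+KU, a fall of -1.70 ± 0.21 (adjusted p 0.000327) between groups that did not overlap, against -1.10 from LPS. Sh3tc1 (-1.57 ± 0.20), Nfic (-1.63 ± 0.30), Cdkn2c (-1.5 ± 0.28), the gene of the cell cycle inhibitor p18, and Nfatc1 (-1.28 ± 0.23), a calcium-regulated factor, were lower too and were not called from LPS. The calls of Nfic, Cdkn2c, Nfatc1 and Tsc22d3 were lost without several single gradients, and that of Per1 without the LPS+ET+KU gradient of pool LUL17. Of the p53 targets 3 of 29 were lower against LPS+ET and 0 higher (against 0.3% of all genes), with a median of -0.41, namely Mdm2 (-0.98), the ubiquitin ligase of p53, Dcxr (-1.05) and Zmat3 (-1.11), while the same 3 stood at 0.97, 1.81 and 1.93 from LPS. These 3 were chosen after their values were seen.

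In the integrated stress response list 3 of 33 were higher against LPS+ET and 0 lower (against 0.778% of all genes called higher), Atf4 (0.85), its target Chac1 (1.61), which degrades glutathione, and Ppp1r15a (1.2). Atf4 and Chac1, chosen after their values were seen, stood at 0.12 and -0.53 from LPS. In the B cell list 4 of 27 were higher against LPS+ET and 0 lower (against the same 0.778%), among them Fcrla (0.68), H2-Ob (1.10) and H2-DMa (0.97), which stood at -0.38, 0.29 and 0.77 from LPS and were also chosen after their values were seen. Irf4 was lower by -0.99 against LPS+ET and by -0.94 against LPS.

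Of the 138 genes named by rule or through the 22 opposite calls, the main counted site lay in an untranslated exon for 107, outside the annotated gene for 19, in an intron for 7, in another exon for 4 and was not annotated for 1 (GENCODE M21, GRCm38).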

How the data were processed

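The deposited values were raw counts of 3′ end reads per gene and gradient fraction, which the authors made from libraries built on equal RNA concentrations. Per the study's methods, reads were collapsed by their random bases, trimmed of A-tracts and aligned to GRCm38/mm10, and ends at poly(A) sites were counted per Ensembl gene. The submitters' processing notes name TopHat2 2.0.12, HTSeq and DESeq2 1.6.3. Of 157 columns, 79 matched 1 sample each and 78 matched a treatment and fraction without a sample number, and 0 columns were of unused samples.

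Each library was scaled to CPM, and fractions 4 to 7 were averaged with equal weight per gradient. The log2(CPM + 1) values were fitted with limma 3.58.1 (trend, R 4.3.3) over the 12 gradients of 3 treatments. The block was the LUL tag (LUL15 to LUL18, from the column names), here called pool. Genes with a mean of at least 20 summed counts per gradient were tested, and calls had a Benjamini-Hochberg adjusted p under 0.01. An equal weight lets a shallow fraction add as much noise as a deep one adds signal. Pairing by pool followed the definition of the comparison. Deviations of gradients from their treatment means correlated between treatments at 0.237 to 0.738 within a pool (12 of 12 pairs over 0.1). Between different pools they correlated at -0.633 to 0.279 (9 of 36 pairs over 0.1). The code was tested on simulated data. Alternatives used edgeR 4.0.16, DESeq2 1.42.0, other filters, pseudocounts, scalings and left-out gradients.

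Genes were named by rule. First came the 12 largest called rises and the 12 largest called falls, with 1 direction in 4 pools. They had a mean of at least 50 summed counts in the higher group. Their symbols were not of the Gm or Rik form, and none had a pseudogene biotype. Next were the genes the study follows and up to 5 called members per list. Last were the 6 largest differences of each sign between heavy polysomes and monosomes and from LPS+ET. Genes outside the rule are said to be chosen after their values were seen, and some genes of the rule and lists are not reported here. The members and lists were chosen with earlier results of these data known. Pseudogenes may share reads with their parent genes. Promoters came from RefSeq (GRCm38.p6). Python 3.11.15, numpy 2.4.6, pandas 2.3.3, scipy 1.17.1 and matplotlib 3.10.9 were used for the rest.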

Additional observations from a re-analysis of the deposited data

Results flagged for a closer look

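In 13 of 156 groups of 4 gradients 1 gradient lay apart from the other 3 by Dixon's criterion, which chance alone meets in about 1 in 20 groups. In LPS+ET+KU these were pool LUL16 for Cd22 (173 CPM, others 85.2 to 99.1), Eef2 (18100 CPM), Snd1 (1050 CPM), Srpk3 (41.6 CPM, others 9.80 to 10.9) and Swap70 (19.2 CPM, others 5.77 to 8.02), and pool LUL15 for Egr1 (35.2 CPM). In LPS they were pool LUL15 for Cxcl10 (7.23 CPM) and Hif1a (160 CPM), pool LUL16 for RP23-239A11.1 (6.43 CPM), pool LUL18 for Cdh23 (42.0 CPM) and Fam212b (18.2 CPM, others 1.52 to 3.90), and, on the low side, pool LUL17 for Sept6 (153 CPM) and Tcf25 (112 CPM).

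The change from LPS differed between heavy polysomes and monosomes by a test of that difference for 4930558K02Rik (3.85), Myh13 (3.23), Cdc42bpg (2.69), mt-Nd6 (2.67), Serpine2 (2.44) and Gpkow (1.71), and with the other sign for RP23-239A11.1 (-3.21), Gm12671 (-2.56), Ndst3 (-2.47), Gm3222 (-2.41), Snd1 (-2.33) and Gm15191 (-2.25). Each of these 12 calls was lost without 8 or more of 12 single gradients. Monosomes of LPS+ET+KU differed from those of LPS+ET for Cxcl10 (3.46), Ifit2 (2.67), Ifit1 (2.28), Tsc22d3 (2.15), Ccrl2 (2.01), Per1 (1.87), Nfatc1 (-1.28), Cdkn2c (-1.502), Sh3tc1 (-1.57), Nfic (-1.63), Egr1 (-1.70) and Cdh23 (-6.18). A fraction 17 library of LPS, used in no comparison, held 777 counts.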

How the results depend on the processing

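The counts below are of genes called, in the order LPS+ET+KU against LPS in monosomes (834), heavy polysomes minus monosomes (40) and LPS+ET+KU against LPS+ET (79), and the causes of the changes were not tested. Without the replicate block on pools, the counts against LPS and against LPS+ET were 176 and 2, and edgeR without the block gave 532. Without a filter they were 385, 0 (2634 genes at an unadjusted p under 0.05) and 12, with only the 8 compared gradients 486, 1 and 504, without libraries under 100000 counts 1489, 127 and 389, and at an adjusted p under 0.05 1630, 460 and 296. edgeR with the block gave 2068, 696 and 502, and 135 in place of 0 for fractions 6 and 7 minus 4 and 5, and DESeq2 with the block gave 1691 against LPS and 441 against LPS+ET. TMM scaling gave 200 for heavy polysomes minus monosomes and 235 against LPS+ET, and the former was 156 with a pseudocount of 5 and 287 with a filter at 100. Chosen after seeing the data, fractions 5 to 7 gave 1460, 65 and 420, edgeR on them 1986, and libraries thinned to 14000 counts 0 in monosomes by limma (734 at an unadjusted p under 0.05). Without 1 gradient the counts ranged from 408 to 828, 0 to 61 and 22 to 162, and for fractions 6 and 7 minus 4 and 5 from 0 to 0.

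Of 1916 values for single genes under alternatives, 1433 kept direction and side of the threshold, 452 fell short of it, 7 newly passed it, all of H2-K1, and 24 changed sign. Ccnd2 was 0.16 under TMM, 0.29 without shallow libraries, 0.23 and 0.24 by edgeR with and without the block, 0.18 by DESeq2, 0.36 from fractions 5 to 7 (0.25 by edgeR), 0.53 thinned, 0.057 without the LPS gradient of LUL15 or LUL18 and 0.0932 without LPS+ET+KU LUL18, in a range of -0.181 to 0.0932 without any 1 gradient. Tial1 was -0.0337 without shallow libraries, -0.0223 by edgeR, -0.0758 by DESeq2, and -0.102, -0.130 and -0.0139 without LPS LUL16, LPS+ET+KU LUL16 and LPS+ET+KU LUL18, in a range of -0.130 to 0.0979. Hif1a was -0.0600, -0.0386 and -0.000727 without LPS LUL17, LPS+ET+KU LUL17 and LPS+ET+KU LUL18, in a range of -0.0600 to 0.205. Without shallow libraries Cdc5l was 0.59, Ppt1 0.0540 and Tia1 0.0566, and Ap3b1 was -0.68 thinned.

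Depth limits these data in LPS fraction 4. The LPS+ET+KU gradients were deeper than LPS in 4 of 4 pools when summed over fractions 4 to 7, though not in every fraction. Fraction 4 of LPS+ET was also shallow in pools LUL17 and LUL18 (32104 and 74715 counts). Some heavy polysome libraries were shallow too. They included LPS LUL17 fraction 12 (32306 counts), LPS+ET LUL16 fraction 12 (33476) and LPS+ET+KU LUL15 fraction 15 (60143). Of the 7329 tests many rest on few LPS counts.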
